A study of Mus musculus with 2 samples.

Results

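The cytosolic ribosomal protein genes were followed across the cell classes of mouse hippocampus in a library from NeuroD1-treated mice and a library from GFP-treated mice. They were taken by symbol from the gene list of the deposited matrices: Rpl or Rps followed by a number, the stalk genes Rplp0, Rplp1 and Rplp2, and Rpsa, without the copies whose symbol ends in -ps. This rule matched 89 of 53717 listed features, and 86 of them reached 20 unique molecular identifiers (UMIs, the counted molecules) over both libraries. Of these, 48 encode large subunit proteins, 35 small subunit proteins and 3 the stalk. By the labels, the NeuroD1 library came from hippocampus of 5xFAD mice injected with AAV9-GFAP::NeuroD1-P2A-GFP, and the GFP library from 5xFAD mice injected with AAV9-GFAP::GFP. Both are labelled 6 months, with tissue taken 3 weeks after injection, and the design text counts 3 mice for each group. There is 1 library per group, and whether animals were pooled in it is not stated. 5xFAD mice are a transgenic amyloid model, and the strain labels give that model for both libraries. The titles read AD and Ctrl instead, with the GFP library as the control, and this mismatch is not settled here. No library with another strain label was analysed. The Gfap promoter in both vectors is active mainly in astrocytes, so other cell types are not the direct target of either vector as it was built.

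Each cytosolic ribosome holds a single copy of nearly all of these proteins, which are arranged on the ribosomal RNAs of the small subunit, which reads the mRNA, and of the large subunit, which joins the amino acids. Their mRNAs are known for a pyrimidine-rich start, the 5′ terminal oligopyrimidine tract, through which mTOR signalling and the protein LARP1 control their translation as a group. The genes are expressed in all cells, with high levels in growing and dividing cells such as activated lymphocytes. A few have paralogs with narrower expression, such as Rpl3l in muscle and Rpl10l in testis.

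The letters around the annotated start of the genes on which the results turn show how far this start motif can be read from the annotation. Promoter windows from RefSeq on GRCm38.p6 were matched by symbol for 62 of the 86 members, with 73 annotated starts. A C at the annotated start followed by 4 pyrimidines was present for 14 of the 62 members (22.6%), against 3.01% of the 27025 genes with a window. A run of at least 8 pyrimidines within 20 bases of a start was present for 31 members (50%), against 18.4% of all genes. The windows below hold 15 bases before the start and 15 bases from it, written 5′ to 3′ on the strand of the gene, with the longest run of C and T in capitals. Rps6, Rpl15 and Rpl38 show the tract at the annotated start, and Rpl38 also had its largest share in endothelial cells. Rpl34 and Rps16 were lower in the NeuroD1 library in each class where they were compared by their own UMIs, without copies. Rpl41 took its largest share in choroid plexus, and Rps27l, Rpl22l1 and Rpl7l1 are paralogs of other members.
Rps6, chr4:86857353-86857382, minus strand: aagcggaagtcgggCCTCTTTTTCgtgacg
Rpl15, chr14:18270972-18271001, minus strand: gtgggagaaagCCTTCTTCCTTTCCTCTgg
Rpl38, chr11:114668565-114668594, plus strand: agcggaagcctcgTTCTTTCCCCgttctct
Rpl34, chr3:130730384-130730413, minus strand: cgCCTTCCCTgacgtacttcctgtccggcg
Rpl34, chr3:130730323-130730352, minus strand: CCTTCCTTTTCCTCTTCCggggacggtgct
Rps16, chr7:28350674-28350703, plus strand: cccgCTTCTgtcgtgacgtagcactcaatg
Rpl41, chr10:128549154-128549183, minus strand: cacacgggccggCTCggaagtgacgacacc
Rps27l, chr9:66946071-66946100, plus strand: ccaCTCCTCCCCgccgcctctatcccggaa
Rpl22l1, chr3:28805493-28805522, plus strand: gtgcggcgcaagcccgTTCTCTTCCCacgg
Rpl7l1, chr17:46782642-46782671, minus strand: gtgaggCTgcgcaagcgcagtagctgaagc
Rpl34 has 2 annotated starts in this table and both are shown; for Rps27l the upstream one of 2 is shown. The longest run reached 18 bases, at one start of Rpl34, and was 2 bases in Rpl7l1 and 3 bases in Rpl41. A run that ends before the annotated start may belong to a transcript that starts upstream of the annotation, which these letters do not show. The 300-base windows, 250 bases before and 50 bases from the start, were also searched on both strands. The letters CCGGAAG, as bound by ETS family factors, stood in the windows of 26 of 62 members (41.9%) and of 9.93% of all genes. TATAAA, the core of the TATA box, stood in those of 8 members (12.9%) and of 15.7% of all genes.

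After filters, 12784 cells and 48415316 UMIs remained in the NeuroD1 library, against 11082 cells and 16176184 UMIs in the GFP library, with a median of 2554.5 (NeuroD1) against 1169 (GFP) UMIs per cell. The libraries differed in ways that the vectors do not name. Xist had 0.0413 CPM (the UMIs of a gene scaled to the same total in each library or class) in the NeuroD1 library, against 103 CPM in the GFP library, while the Y-linked Ddx3y had 69.5 CPM (NeuroD1) against 0.0618 CPM (GFP). By these genes the groups may differ in the sex of the animals, which the labels do not settle. Haemoglobin genes made up 0.461% (NeuroD1) against 0.00108% (GFP) of UMIs, the choroid plexus mRNA Ttr 13% (NeuroD1) against 2.24% (GFP), and mitochondrially encoded genes 3.07% (NeuroD1) against 4.31% (GFP). The vector feature GFP had 13 CPM in the NeuroD1 library, against 1562 CPM in the GFP library, and the vector feature ND1 had 0 UMIs in both, so it gives no check of the labels, and "NeuroD1 library" means here the library so labelled. The gene Neurod1 had 7.58 CPM (NeuroD1) against 5.38 CPM (GFP). The libraries shared 99 cell barcodes. The parts that sex, depth, handling, free RNA and the vectors have in the differences below cannot be told apart with 1 library per group. Each interval of a share or a ratio covers counting error only, and that of a median of members covers spread among members only.

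Within a library, the share of UMIs on ribosomal protein genes followed the cell class. It was highest in the T or NK lymphocyte-like class, at 9.17% in the NeuroD1 library, against 10.4% in the GFP library. In the order of the NeuroD1 library, immature neuron-like cells followed with 4.51% (NeuroD1) against 5.56% (GFP), and border macrophage or monocyte-like cells with 3.39% (NeuroD1) against 4.14% (GFP). In the GFP library microglia-like cells came second, with 6.05%, ahead of both. At the low end of the NeuroD1 order stood oligodendrocyte-like cells with 1.49% (NeuroD1) against 1.74% (GFP), astrocyte-like cells with 1.22% (NeuroD1) against 1.20% (GFP), and choroid plexus epithelium-like cells with 1.19% (NeuroD1) against 1.97% (GFP). In the GFP library astrocyte-like cells were lowest, and neuron-like cells (1.91%) lay below choroid plexus epithelium-like cells. The highest class exceeded the lowest 7.73-fold in the NeuroD1 library over 14 classes and 8.61-fold in the GFP library over 12 classes with at least 30 cells. The clustering that gave the classes used no ribosomal protein gene. With each cell thinned to 500 UMIs the range was 8.08-fold (NeuroD1) and 8.97-fold (GFP). The order of the NeuroD1 library then changed in places. Astrocyte-like cells (1.14%) were lowest, under choroid plexus epithelium-like cells (1.27%), and microglia-like cells (2.37%) lay under vascular smooth muscle-like cells (2.41%). Over the 12 classes with 30 cells in both libraries the Spearman rho of the shares was 0.80, as a description of points that share libraries. By counting error alone, without the spread among cells, the 95% intervals separate most neighbours in the unthinned order. In the NeuroD1 library they overlapped between neighbours from endothelial cell-like (2.68%) through neuron-like and fibroblast-like to microglia-like cells (2.51%), and between ependymal cell-like and oligodendrocyte precursor-like cells. In the GFP library they overlapped between choroid plexus epithelium-like (1.97%) and neuron-like cells (1.91%). Microglia-like cells stood at place 7 of 14 in the NeuroD1 library, against place 2 of 12 in the GFP library, and neuron-like cells at place 5 (NeuroD1) and place 10 (GFP).

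**Figure D1:**
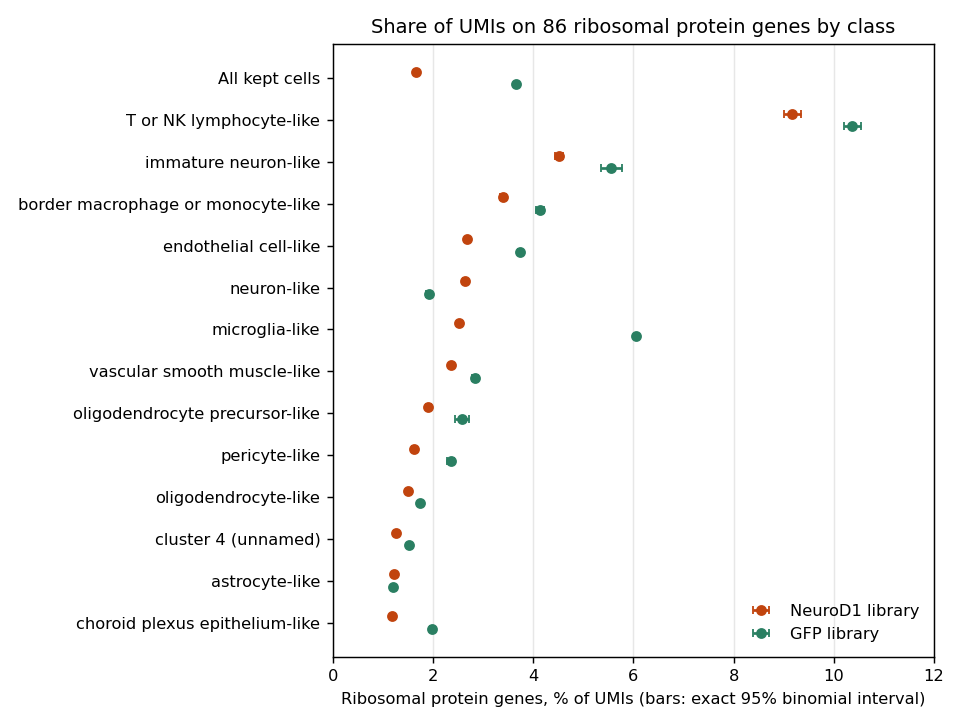
Share of UMIs on the 86 ribosomal protein genes in all kept cells and in each class with at least 30 cells in both libraries, and in cluster 4, with exact 95% binomial intervals that are often narrower than the points. The NeuroD1 library lies left of the GFP library in each row except the neuron-like class and the astrocyte-like class, and the gap is widest in microglia-like cells, at 2.51% (NeuroD1) against 6.05% (GFP).

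Over all kept cells, ribosomal protein genes made up 1.66% of UMIs in the NeuroD1 library (95% interval 1.65% to 1.66%) and 3.66% in the GFP library (3.65% to 3.67%), a ratio of 0.453. Of the 85 members that reached 20 UMIs when both sums were added, 72 were at least 1.5-fold lower in the NeuroD1 library and 2 at least 1.5-fold higher, against 22.6% and 17.0% of all 18066 genes tested in the same way. The median log2 ratio of the members was -1.12 and that of all genes 0.00. Part of this gap followed the cells that each library held: with the within-class shares of the NeuroD1 library but the class weights of the GFP library the share was 2.05%, and with the within-class shares of the GFP library but the weights of the NeuroD1 library it was 2.31%. The comparison was therefore made within classes with at least 100 cells in each library, of which there were 9, and in cluster 4. Cluster 4 has all 10 astrocyte markers raised but is left unnamed because of its low UMI counts.

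Microglia-like cells showed the widest difference. Ribosomal protein genes made up 2.51% of their UMIs in the NeuroD1 library (1281 cells) and 6.05% in the GFP library (3639 cells), a ratio of 0.415 (95% interval 0.412 to 0.419). Of 85 members tested, 70 were at least 1.5-fold lower in the NeuroD1 library, against 13.9% of all genes, and 3 at least 1.5-fold higher, against 40.3% of all genes. The median log2 ratio was -1.20 for the members and 0.41 for all genes.

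The lower members came from both subunits and the stalk. All 3 stalk genes were at least 1.5-fold lower, and the stalk is the flexible arm of the large subunit that recruits the translation GTPases. Rplp0, its base, had 783 CPM in the NeuroD1 library, against 1349 CPM in the GFP library, a log2 ratio of -0.78. Rplp1 had 1345 CPM (NeuroD1) against 2936 CPM (GFP), a log2 ratio of -1.13, and Rplp2 had 369 CPM (NeuroD1) against 921 CPM (GFP), a log2 ratio of -1.32. In the small subunit 28 of 35 members were at least 1.5-fold lower and 1 at least 1.5-fold higher. Rps14, on the platform of the small subunit, had 928 CPM in the NeuroD1 library, against 1933 CPM in the GFP library (-1.06). Rps19, mutated in Diamond-Blackfan anaemia in humans, had 854 CPM (NeuroD1) against 1965 CPM (GFP), a log2 ratio of -1.20. Rps3, which lies at the mRNA entry, had 924 CPM (NeuroD1) against 1495 CPM (GFP), a log2 ratio of -0.69. Differences were smaller for Rpsa, which also serves as a laminin receptor, with 229 CPM in the NeuroD1 library, against 315 CPM in the GFP library (-0.46), and for Rps27, with 28.4 CPM (NeuroD1) against 35.3 CPM (GFP), a log2 ratio of -0.31, and an interval of the ratio (0.611 to 1.05) that includes 1. In the large subunit 39 of 47 members were at least 1.5-fold lower and 2 at least 1.5-fold higher. Rpl5 and Rpl11, which together with 5S RNA can bind and hold back the p53 regulator MDM2, were both lower. Rpl5 had 61.3 CPM (NeuroD1) against 262 CPM (GFP), a log2 ratio of -2.09, and Rpl11 had 155 CPM (NeuroD1) against 575 CPM (GFP), a log2 ratio of -1.89. Rpl41, the shortest ribosomal protein, had 1568 CPM (NeuroD1) against 4086 CPM (GFP), a log2 ratio of -1.38.

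The members farthest from 1 in microglia-like cells, ranked by the interval end nearest to 1, were Rpl34, Rps23, Rps16 and Rpl6 among the lower ones. Rpl34 had 318 CPM in the NeuroD1 library, against 1765 CPM in the GFP library, a ratio of 0.180 (0.168 to 0.193). Rps23, a protein of the decoding site, had 94.8 CPM (NeuroD1) against 473 CPM (GFP), a ratio of 0.201. Rps16 had 18.2 CPM (NeuroD1) against 102 CPM (GFP), a ratio of 0.179, and Rpl6 had 67.1 CPM (NeuroD1) against 316 CPM (GFP), a ratio of 0.212. The higher ones were Rps4l, Rpl30, Rpl10 and Rpl7l1. Rps4l, a paralog of the small subunit gene Rps4x, had 46.7 CPM in the NeuroD1 library, against 17 CPM in the GFP library, a ratio of 2.74 (2.08 to 3.61). Rps4x itself went the other way, with 431 CPM (NeuroD1) against 864 CPM (GFP), a ratio of 0.499. Rpl7l1, a nucleolar paralog of Rpl7, had 71.1 CPM (NeuroD1) against 48.1 CPM (GFP), a ratio of 1.48 (1.22 to 1.78).

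The microglia-like class is made of different clusters in each library. In the GFP library, 2637 of the 3639 cells were in cluster 1, led by Cst7, Ctse and Igf1, to which the NeuroD1 library gave 11 cells. In cluster 1 the ribosomal protein share was 6.27% in the GFP library. Cluster 6, led by Tmem119 and P2ry13, held 550 cells of the NeuroD1 library, against 601 of the GFP library, and there the shares were 2.03% (NeuroD1) against 4.70% (GFP). Of 76 members tested in cluster 6, 66 were at least 1.5-fold lower in the NeuroD1 library (12.9% of all genes) and 2 higher (24.2% of all genes), with a median log2 ratio of -1.12. Cluster 11, led by Il1a and Nfkbid, held 662 NeuroD1 and 75 GFP cells, with shares of 2.72% (NeuroD1) against 4.10% (GFP). There 37 of 76 members were lower (22.2% of all genes) and 2 higher (24.1%), with a smaller median of -0.55. Cluster 25, led by Top2a and Ube2c, held 56 NeuroD1 and 68 GFP cells. There 49 of 60 members were lower (19.3% of all genes) and 0 higher (33.6%), with a median of -1.004. Among cells of like depth the gap was also present. From 500 to under 1000 UMIs the microglia-like share was 2.26% in the NeuroD1 library, against 4.82% in the GFP library. The ratio lay between 0.331 and 0.470 in each of the 4 depth ranges. Beside the ribosomal protein genes, 18 of 23 immediate early genes, which respond to stimulation and to dissociation, were at least 1.5-fold higher in microglia-like cells of the NeuroD1 library, beside 40.3% of all genes, for example Jun with 5264 CPM (NeuroD1) against 2367 CPM (GFP). Of the mitochondrially encoded genes 5 of 8 were at least 1.5-fold lower, beside 13.9% of all genes. Their part in the result was not tested.

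Medians under 0, of smaller size, also stood in the other 7 units outside astrocyte-like and neuron-like cells. In choroid plexus epithelium-like cells the share was 1.19% in the NeuroD1 library, against 1.97% in the GFP library. There 56 of 79 members were at least 1.5-fold lower, against 34.2% of all genes, 1 was higher, against 8.85%, and the median log2 ratio was -0.78 for members and -0.35 for all genes. Ttr alone made up 45.8% (NeuroD1) against 29.5% (GFP) of the UMIs of these cells, and it enters the total to which each level is scaled. With Ttr, mitochondrial, haemoglobin and vector UMIs left out of the total, 33 of 79 members were lower, with a median of -0.44, and with median-of-ratios scaling 32 of 79 were, with a median of -0.43. The share of all genes was not computed in these 2 settings, and the 34.2% given before does not apply to them. In endothelial cell-like cells, with shares of 2.68% (NeuroD1) against 3.73% (GFP), 36 of 83 members were lower, against 12.6% of all genes, and 2 higher, against 22.1%. Most of these cells were in cluster 5 in the NeuroD1 library (1716 NeuroD1 and 139 GFP cells) and in cluster 9 in the GFP library (161 NeuroD1 and 854 GFP cells). The median was -0.52 in cluster 5, beside 0.06 for all genes, and -0.58 in cluster 9, beside -0.11 for all genes. The haemoglobin mRNA Hba-a1 had 10140 CPM (NeuroD1) against 55.8 CPM (GFP) in the class, and its part in the result was not tested. In pericyte-like cells, with shares of 1.61% (NeuroD1) against 2.35% (GFP), 27 of 63 were lower, against 17.2%, and 2 higher, against 20.5%. The median log2 ratios were -0.47 and -0.49 in these vascular classes.

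In oligodendrocyte-like cells, with shares of 1.49% in the NeuroD1 library, against 1.74% in the GFP library, 25 of 84 members were lower, against 15.5% of all genes, and 4 higher, against 12%. Here too the clusters differed: cluster 0, led by Mobp, held 2769 NeuroD1 and 325 GFP cells, and cluster 3, led by Npsr1, held 286 NeuroD1 and 1940 GFP cells. The median was -0.26 in cluster 0, beside 0.01 for all genes, and -0.14 in cluster 3, beside 0.05 for all genes. In vascular smooth muscle-like cells 21 of 69 were lower, against 15.2%, and 3 higher, against 19.2%. In border macrophage or monocyte-like cells 24 of 66 were lower, against 18.6%, and 0 higher, against 19.4%. The medians of these 3 classes were -0.30, -0.23 and -0.25. Cluster 4 had 19 of 74 members lower, against 22.6%, and 0 higher, against 8.74%, a share of members close to that of all genes, with a median of -0.27 beside -0.16 for all genes. Hba-a1 had 39732 CPM (NeuroD1) against 4.12 CPM (GFP) in this cluster, and the members' median was -0.17 without haemoglobin, mitochondrial, Ttr and vector UMIs in the total, -0.11 with median-of-ratios scaling and -0.097 with free RNA subtracted.

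Astrocyte-like cells are the main target of the Gfap promoter of the vectors. In them the vector feature GFP had 47.5 CPM (NeuroD1) against 5839 CPM (GFP), and the gene Neurod1 14 UMIs (NeuroD1) against 2 (GFP). How many of these cells held a vector was not tested. As a class, astrocyte-like cells had a summed level closest to equal, but not within the clusters. Their share was 1.22% in the NeuroD1 library (2640 cells) and 1.20% in the GFP library (1160 cells), a ratio of 1.01 (95% interval 0.998 to 1.03). Of 81 members, 15 were at least 1.5-fold lower, against 27.9% of all genes, and 5 at least 1.5-fold higher, against 11.1%. The median log2 ratio was -0.11 for members and -0.17 for all genes. The interval of the members' median (-0.26 to -0.02) describes spread among members, which are not replicates. Among cells of like depth the share was lower in the NeuroD1 library, with ratios of 0.776 to 0.958 in the 4 depth ranges, and the class is made of different clusters in each library. Cluster 2, led by Etnppl and Agt, held 2386 NeuroD1 and 153 GFP cells, with shares of 1.19% (NeuroD1) against 1.46% (GFP) and a median of -0.32. Cluster 8, led by Gh, the vector feature GFP and Serpina3n, held 90 NeuroD1 and 1007 GFP cells, with shares of 0.991% (NeuroD1) against 1.16% (GFP). Its median was -0.24, beside 0.01 for all genes, with 18 of 70 members lower (21.2% of all genes) and 4 higher (18.6%). Cluster 20 held 164 NeuroD1 and 0 GFP cells, with a share of 1.56%. The share was higher in deeper astrocyte-like cells, 0.812% in the shallowest and 1.32% in the deepest range of the NeuroD1 library, against 1.05% and 1.38% in the GFP library. The shallowest range holds 24 cells of the NeuroD1 library and the deepest 26 of the GFP library. Rpl3, which shapes the peptidyl transferase centre, had 23.7 CPM in astrocyte-like cells of NeuroD1 origin, against 55.7 CPM in those of the GFP library. Rps2 had 151 CPM (NeuroD1) against 88.9 CPM (GFP) and Rps27l, a paralog of Rps27 known in humans as a p53 target, had 176 CPM (NeuroD1) against 109 CPM (GFP).

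**Figure D2:**
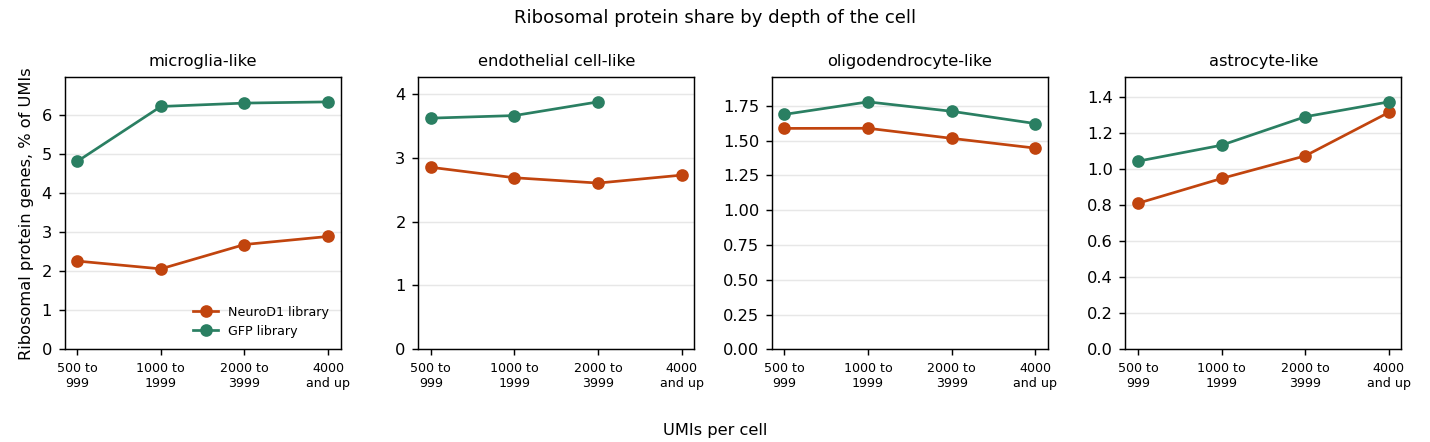
Share of UMIs on ribosomal protein genes in cells grouped by their number of UMIs, in the 4 classes with the most cells, with a line for each library and no point where a group has under 20 cells. The NeuroD1 line lies under the GFP line at each depth shown, by most in microglia-like cells and by least in oligodendrocyte-like cells and deep astrocyte-like cells.

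Neuron-like cells had the opposite direction as a class. Their share was 2.64% in the NeuroD1 library (173 cells) and 1.91% in the GFP library (196 cells), a ratio of 1.38. Of 67 members, 31 were at least 1.5-fold higher, against 35.8% of all genes, and 2 lower, against 25.6%. Among cells with at most 10% mitochondrial UMIs, 11 were higher and 7 lower, with a median of 0.29 in place of 0.54. The shares of all genes were not computed in these filtered cells. The class holds unlike cells in the libraries. In the GFP library 122 of the 196 cells were in cluster 24, led by Slc17a7 and Grin2a, with a ribosomal protein share of 1.15% and with 10.8% mitochondrial UMIs, and the NeuroD1 library gave this cluster 7 cells. Cluster 16, led by Reln, Slc17a6 and Lhx1, held 166 cells of the NeuroD1 library, against 74 of the GFP library. There the share was 2.74% (NeuroD1) against 3.66% (GFP), and 16 of 66 members were at least 1.5-fold lower, against 18.9% of all genes, and 2 higher, against 22.6%, with a median log2 ratio of -0.31. Rpl22l1, a paralog of Rpl22, was among the 4 highest members of the class, with 731 CPM (NeuroD1) against 369 CPM (GFP), but had 744 CPM in the NeuroD1 library, against 908 CPM in the GFP library within cluster 16 (ratio 0.82, 0.64 to 1.07).

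Over all 19 clusters with at least 30 cells in both libraries, the ribosomal protein share was lower in the NeuroD1 library in 19, with ratios of 0.433 to 0.932. The other 9 clusters, among them clusters 1 and 24, have fewer than 30 cells in 1 library. Among classes and depth ranges with 20 cells on both sides, 24 of 24 outside the neuron-like class had a lower share in the NeuroD1 library.

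**Figure D3:**
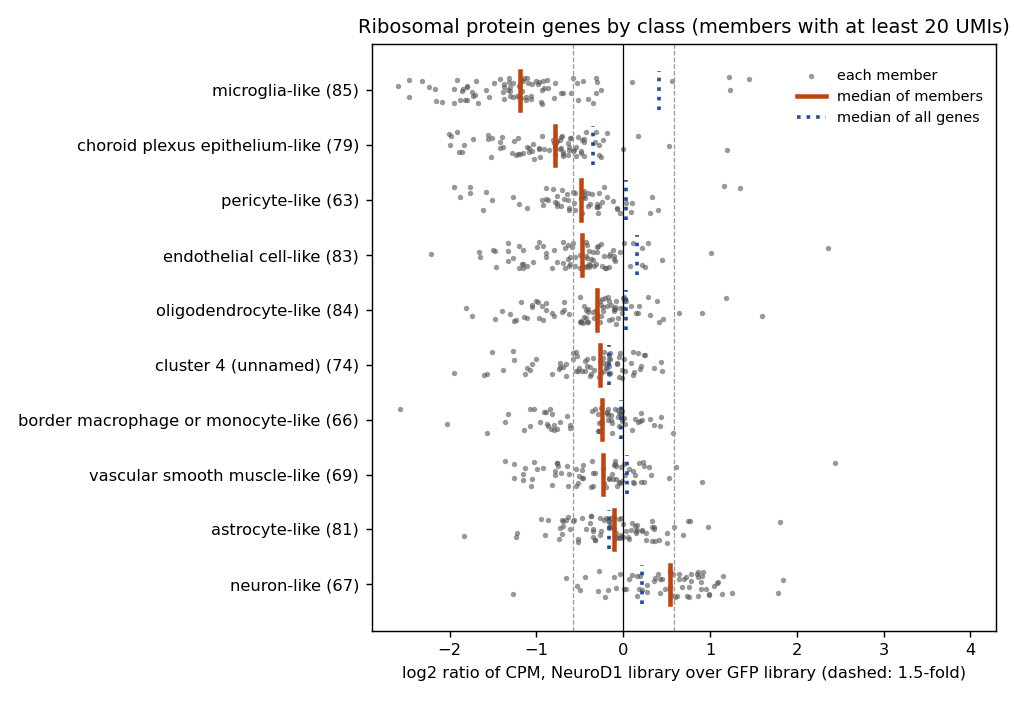
Log2 ratio of CPM, NeuroD1 library over GFP library, for each member with at least 20 UMIs in the class (number in parentheses), with the median of the members as a solid bar and that of all genes as a dotted bar. The members' median lies left of the all-gene median in 8 of the 10 rows, farthest in microglia-like cells, and right of it in astrocyte-like and neuron-like cells.

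Several members recurred at the low end. Of the 61 members tested in all 10 units, 11 had a log2 ratio under 0 in each, and 1, Rpl34, was at least 1.5-fold lower in each. Counts over units were not made for all genes, so whether such recurrence is particular to these members was not tested. Rpl34 (ENSMUSG00000062006), a protein of the large subunit, had its smallest difference in neuron-like cells, with 275 CPM in the NeuroD1 library, against 435 CPM in the GFP library, and in astrocyte-like cells, with 139 CPM (NeuroD1) against 225 CPM (GFP). In endothelial cell-like cells it had 352 CPM (NeuroD1) against 1110 CPM (GFP), in oligodendrocyte-like cells 154 CPM (NeuroD1) against 363 CPM (GFP), and in choroid plexus epithelium-like cells 127 CPM (NeuroD1) against 470 CPM (GFP). Rps16 (ENSMUSG00000037563) was at least 1.5-fold lower in 9 of the 9 units where it was tested. Rpl19, Rpl6, Rpl3, Rpl5, Rps3a2, Rpl11 and Rpl13 were so in 9 of 10 and Rps23 in 8 of 10. Rpl13 had 219 CPM in astrocyte-like cells of NeuroD1 origin, against 365 CPM in those of the GFP library, and 558 CPM (NeuroD1) against 1244 CPM (GFP) in endothelial cell-like cells.

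How these members are counted bears on those ratios, because features named as copies of them are listed beside them. The sequences of the copies were not compared with the members. For 61 of the 86 members the gene list holds at least 1 feature of the same name ending in -ps, 291 in all, and 195 of them have a UMI. For 20 members the copies hold more UMIs than the member itself. Rps6, whose protein is the phosphorylated target of S6 kinase, had 446 UMIs of its own in both libraries and 17891 on its 4 copies, and Rpl17 had 890 and 44608. How reads that match both such a gene and its copies were counted is not given, so the levels of these members are uncertain. With the UMIs of the copies added, Rpl34 remained under 0 in 10 of 10 units and at least 1.5-fold lower in 8, with a median over units of -0.91. Rpl5 was lower in 9 of 10 (median -1.10) and Rpl13 in 9 of 10 (-0.99). Rps16 then was lower in 2 of 9 (-0.14) and Rps23 in 5 of 10 (-0.60). In microglia-like cells, Rps16 with its copies had 441 CPM in the NeuroD1 library, against 970 CPM in the GFP library, and Rpl17 with its copies had 469 CPM (NeuroD1) against 3417 CPM (GFP). Rpl6 and Rpl11 have no such copy in the list. Only features named -ps were taken as copies. Features with other names that may share reads with a member were not searched, so the counting of members without a -ps copy was not settled either.

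At the other end, few members were higher in the NeuroD1 library. Rpl30 (ENSMUSG00000058600), which lies near the contact between the subunits, was at least 1.5-fold higher in 7 of 8 units and above 0 in all 8, for example with 37.8 CPM (NeuroD1) against 6.98 CPM (GFP) in endothelial cell-like cells. With its 9 copies added it was so in 6 of 8. Rps4l (ENSMUSG00000063171), whose 1 copy has 0 UMIs, was at least 1.5-fold higher in 7 of 9 units, with 158 CPM (NeuroD1) against 78.3 CPM (GFP) in endothelial cell-like cells and 33.4 CPM (NeuroD1) against 17.6 CPM (GFP) in oligodendrocyte-like cells. The exception below 0 was choroid plexus epithelium-like cells, where it had 22 UMIs in the NeuroD1 library, against 4 in the GFP library. Rpl7l1 was above 0 in 8 of 10 units and Rps27l in 7 of 10. Rpl10 stood at 32.8 CPM in the NeuroD1 library, against 14 CPM in the GFP library in microglia-like cells, but at 63.8 CPM (NeuroD1) against 126 CPM (GFP) once its 6 copies were added, so its direction depends on the counting of the copies.

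**Figure D4:**
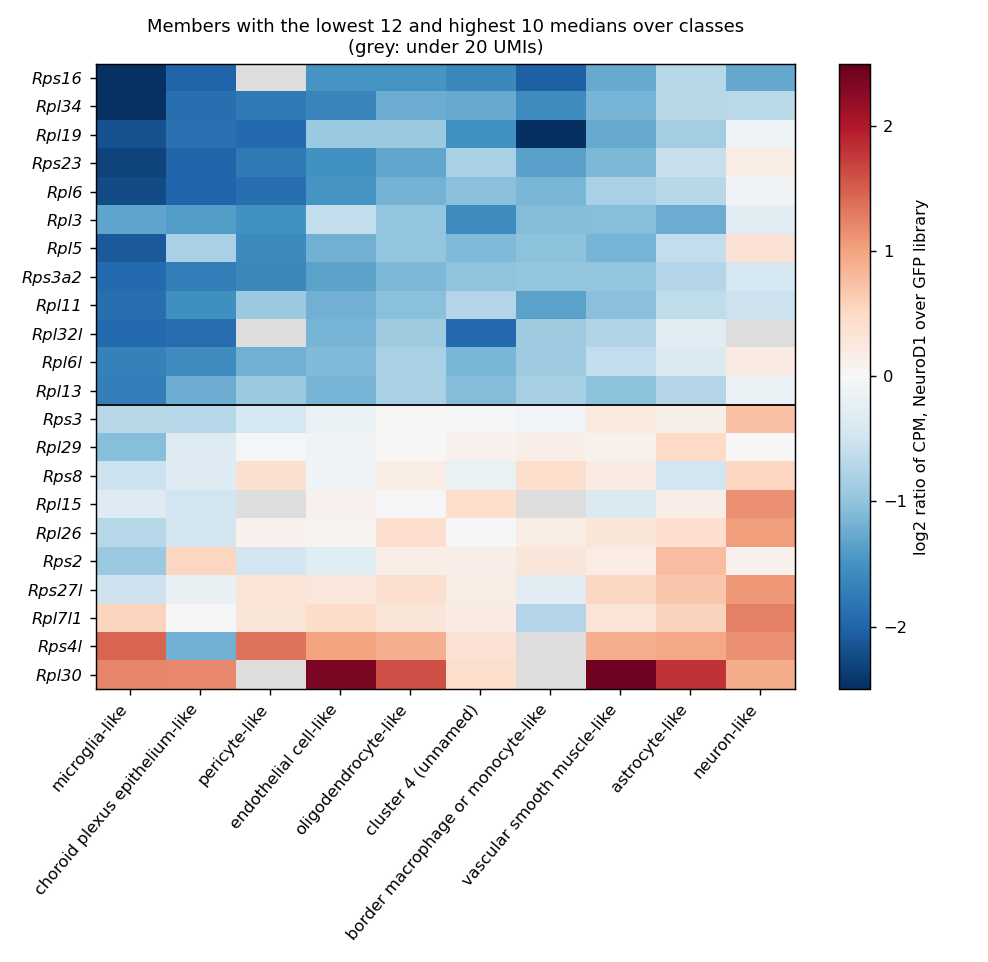
Log2 ratio of CPM, NeuroD1 library over GFP library, in the 9 classes and cluster 4, for the 12 members with the lowest and the 10 with the highest median over units among members tested in at least 8 units. The upper rows are blue from microglia-like to astrocyte-like cells and paler in the neuron-like column for most, where Rps23, Rpl5 and Rpl6l are above 0. Rpl30 is red in each unit with 20 UMIs, Rps4l in each but choroid plexus epithelium-like cells, and grey marks units under 20 UMIs.

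The make-up of the ribosomal protein UMIs also differed by class, and several of these differences recurred in both libraries. Most members simply followed the total: the T or NK lymphocyte-like class had the highest CPM for 65 of 86 members in the NeuroD1 library, against 64 in the GFP library. Rps15a had 1871 CPM in that class in the NeuroD1 library, against 2221 CPM in the GFP library, 6.99 (NeuroD1) and 6.33 (GFP) times its median over classes. Rpl32 had 6694 CPM (NeuroD1) against 6341 CPM (GFP) there, and Rps18 2806 CPM (NeuroD1) against 3272 CPM (GFP). Taking each member as a share of the ribosomal protein UMIs removes the common part. Rpl41 made up 16.1% of them in choroid plexus epithelium-like cells of NeuroD1 origin, where its median over classes was 7.53%, and 14.1% in those of GFP origin, where the median was 6.88%. Rpl38, which in mouse embryos is needed for translation of Hox mRNAs, had its largest share in endothelial cell-like cells, at 0.534% (NeuroD1) against 0.564% (GFP), beside medians over classes of 0.195% (NeuroD1) and 0.226% (GFP). Its level there was 143 CPM in the NeuroD1 library, against 210 CPM in the GFP library, and in microglia-like cells it was 23 CPM (NeuroD1) against 80.4 CPM (GFP). Rpl38 is among the members whose copies hold more UMIs than the gene, 25041 against 3811. With its copies added it had 1097 CPM (NeuroD1) against 1272 CPM (GFP) in endothelial cell-like cells, and 256 CPM (NeuroD1) against 643 CPM (GFP) in microglia-like cells. Rpl13 made up 5.46% (NeuroD1) against 6.29% (GFP) in oligodendrocyte precursor-like cells, beside medians over classes of 1.97% (NeuroD1) and 2.97% (GFP), from 375 (NeuroD1) and 81 (GFP) UMIs. Rplp1 had its largest share in microglia-like cells, at 5.35% (NeuroD1) against 4.85% (GFP), beside medians over classes of 3.52% (NeuroD1) and 3.24% (GFP).

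Some paralogs had uneven levels. Among classes with at least 30 cells, Rps4l was highest in pericyte-like cells in both libraries, with 214 CPM in the NeuroD1 library (142 UMIs) and 81.6 CPM in the GFP library (14 UMIs), followed by endothelial cell-like cells, and lay at 1.71 CPM (NeuroD1) against 3.60 CPM (GFP) in choroid plexus epithelium-like cells. In the GFP library these first 2 classes do not differ beyond counting error. Rps27l reached its largest share in choroid plexus epithelium-like cells, at 2.33% (NeuroD1) against 1.59% (GFP) of ribosomal protein UMIs, and its smallest in T or NK lymphocyte-like cells, at 0.160% (NeuroD1) against 0.109% (GFP). Rpl22l1 was largest in neuron-like cells of the NeuroD1 library (2.77%) and in choroid plexus epithelium-like cells of the GFP library (2.54%), so its place differed between libraries. Rpl39l had 73 UMIs over both libraries. Rpl3l with 14 UMIs, Rps12l1 with 5 and Rpl10l with 1 fell below the minimum of 20, and Rpl24 with 21 lay just above it and was compared in no class. Its highest class differed between the libraries and rested on 2 UMIs in the NeuroD1 library, against 4 in the GFP library. Rps13, Rpl32l and Rpl18 were the other members with a large ratio of the highest to the median class, and all were highest in T or NK lymphocyte-like cells in both libraries. For Rps13 this rests on 5 (NeuroD1) and 8 (GFP) UMIs, and its copies hold 9644 UMIs against 335 of its own.

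**Figure D5:**
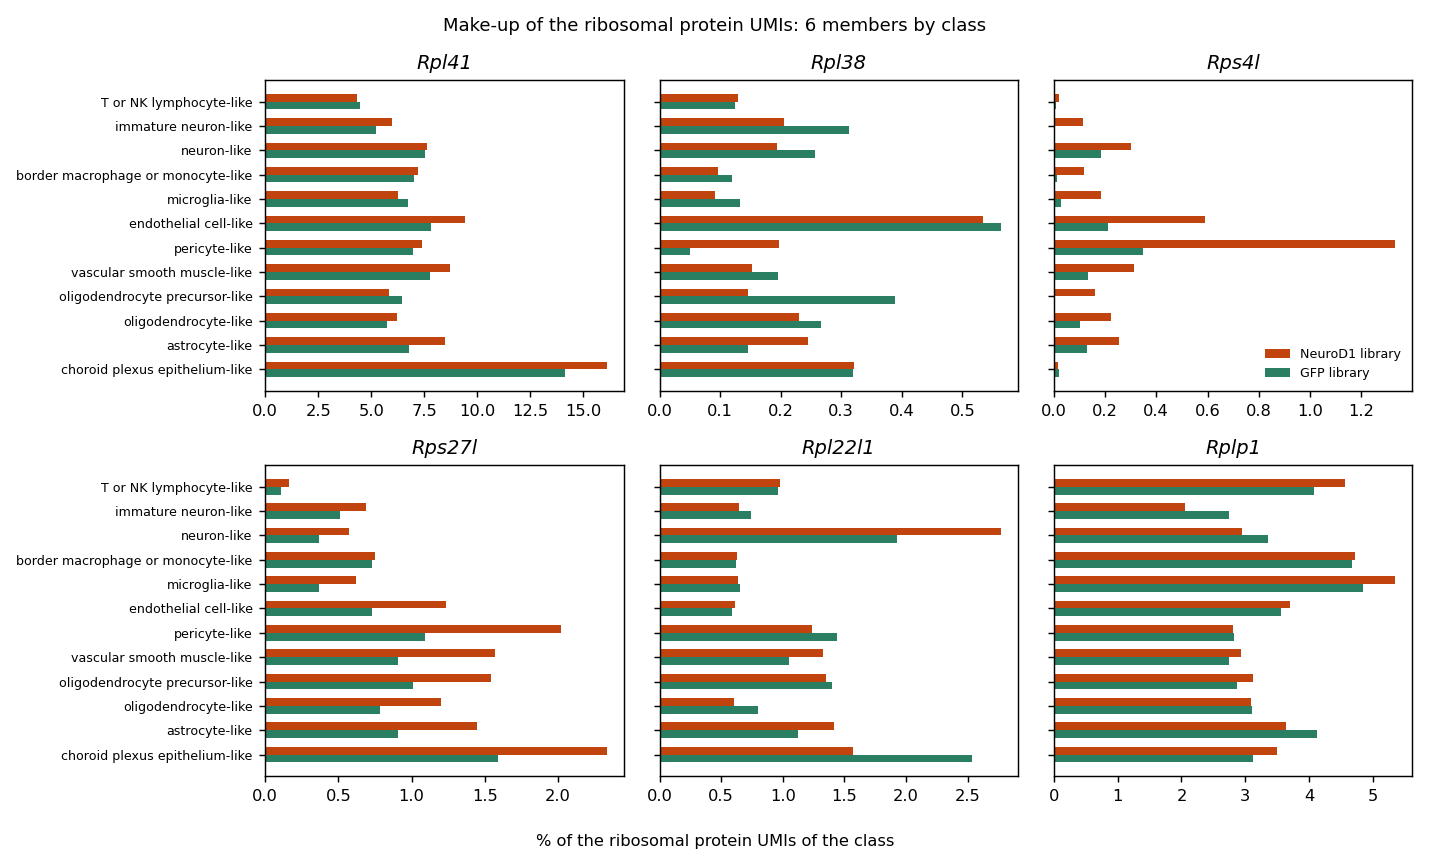
Percent of the ribosomal protein UMIs of each class that 6 members make up, with a bar for each library. Rpl41 is longest in choroid plexus epithelium-like cells, Rpl38 in endothelial cell-like cells, Rps4l in pericyte-like cells, and Rps27l in choroid plexus epithelium-like cells in both libraries.

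The members with a pyrimidine run near an annotated start were set beside those without one. In microglia-like cells the median log2 ratio was -1.30 over 31 members with a run and -0.99 over 30 without. In endothelial cell-like cells the medians were -0.61 and -0.38, they were -0.43 and -0.24 in oligodendrocyte-like cells, and both -0.16 in astrocyte-like cells. The quartile ranges of both sets overlapped in each of these classes. In microglia-like cells they ran from -1.76 to -0.998 with a run and from -1.38 to -0.70 without.

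Other genes of the translation apparatus, taken from lists, are read against the genes as a whole in microglia-like cells, of which 13.9% were lower and 40.3% higher, with a median of 0.41. The 4 ribosomal proteins whose symbols fall outside the name rule had a median log2 ratio of -0.78, with 2 of 4 at least 1.5-fold lower. One was Fau, the precursor of eS30, with 61.3 CPM in the NeuroD1 library, against 230 CPM in the GFP library. The other was Rpl36al, with 30.3 CPM (NeuroD1) against 68 CPM (GFP). Rack1, a scaffold on the small subunit, had 167 CPM (NeuroD1) against 203 CPM (GFP), which is not past this fold. Elongation factors and other mRNAs with a known oligopyrimidine tract had 8 of 16 lower and 0 higher, with a median of -0.62, led by Eef1a1, which brings tRNA to the ribosome, with 634 CPM (NeuroD1) against 1853 CPM (GFP). Initiation factors had 2 of 29 lower and 4 higher (median 0.21), ribosome biogenesis genes 1 of 31 lower and 10 higher (0.40), with Ncl at 639 CPM (NeuroD1) against 483 CPM (GFP) and Npm1 at 412 CPM (NeuroD1) against 788 CPM (GFP), and the list of tract binding and mTOR pathway genes 1 of 14 lower and 6 higher (0.57). The medians of these 3 lists are above 0, as is that of all genes. Mitochondrial ribosomal proteins had 7 of 76 lower and 6 higher (-0.09). In choroid plexus epithelium-like cells all of these lists had medians under 0, from -0.36 for mitochondrial ribosomal proteins to -1.19 for the 3 tested ribosomal proteins outside the rule, beside -0.35 for all genes. Immediate early genes were lower there too, 17 of 20 at least 1.5-fold, beside 34.2% of all genes. In neuron-like cells 60 of 72 mitochondrial ribosomal protein genes were at least 1.5-fold higher in the NeuroD1 library, beside 35.8% of all genes, and 7 of 7 mitochondrially encoded genes at least 1.5-fold lower, beside 25.6%, in libraries whose neuron-like cells come from different clusters.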

How the data were processed

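RNA of single cells from mouse hippocampus was captured for 2 libraries, 1 per group, in microwells of a SCOPE-chip per the labels' protocols. The description field names another platform. The authors deposited raw UMI counts per gene and barcode, and values start at 500 UMIs per barcode. Per the submitters' processing notes, FastQC, fastp, cutadapt, STAR and featureCounts and the build mm39 were used, with no roles or versions. The annotation release, the strand setting and the treatment of reads with several matches are not given in the sources used here. That build differs from that of the reference, so the only coordinates printed are those of RefSeq windows on GRCm38.p6.

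A barcode was kept from 200 detected genes on if mitochondrial UMIs were 20% or less, and doublets called by Scrublet were removed (3.67% in the NeuroD1 library, 4.75% in the GFP library). Cells were scaled to 10000 UMIs, log transformed and clustered jointly in scanpy 1.11.5 on 3000 variable genes without ribosomal protein, mitochondrial, haemoglobin, immediate early and sex-linked genes, with 30 components, 15 neighbours and Leiden at resolution 1.0. A cluster was named when at least 3 markers and 50% of a class list were 2-fold over the other cells and detected in 10% of its cells, unless another class had more markers among its 10 leading genes, another class was marked as fully (cluster 17), 3 of the leading genes were mitochondrial (cluster 12), or no marker was among the leading genes and the median UMI count was over 3-fold below that of the library with most of its cells (cluster 4). These 3 of 28 clusters stayed unnamed. The names are rebuilt here and are not the authors'. UMIs were summed per library and class. Ratios are CPM ratios with exact conditional binomial 95% intervals, log2 ratios have 0.5 UMI added to each sum, shares have Clopper-Pearson intervals, and medians of members have order-statistic intervals. A class was compared when each library had at least 100 cells, and a member or gene was tested when it had 20 UMIs in both sums together. With 1 library per group no p-value is given. The calculation was tested on simulated data.

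The members, gene lists and marker lists were chosen with earlier results of these data known. Named members are those fixed by role, up to 4 with the highest and 4 with the lowest ratio in each class by the interval end nearest to 1 (50 UMIs in 1 sum), the 8 with the largest ratio of their highest to their median class, and those next to the 20 UMI minimum. Members described as recurring over classes, as uneven in share or as rich in copies were chosen after their values were seen. Alternatives were other filters, clusterings, scalings, minimums, thinning, subtraction of free RNA and the treatment of copies.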

Additional observations from a re-analysis of the deposited data

Results flagged for a closer look

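The summed ribosomal protein UMIs went in opposite directions in 2 classes under the same contrast: the NeuroD1 over GFP ratio was 1.38 in neuron-like cells and 0.415 in microglia-like cells. The difference between classes was not tested, since each ratio comes from the same pair of libraries. Within the neuron-like cluster that both libraries fill, cluster 16, the median log2 ratio of the members was -0.31.

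UMIs were also counted on features outside the members. The copies of ribosomal protein genes with symbols ending in -ps held 242679 UMIs in the NeuroD1 library, against 240163 in the GFP library. With them added to their members, the share of UMIs in kept cells was 2.13% in the NeuroD1 library, against 5.04% in the GFP library.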

How the results depend on the processing

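No paired analysis was possible because each group has 1 library. The NeuroD1 over GFP ratio of the ribosomal protein share, 0.453 over all kept cells, was 0.444 with at most 10% mitochondrial UMIs or with at least 1000 UMIs per cell, 0.504 after thinning, 0.503 as a mean of per-cell CPM, 0.506 without mitochondrial, haemoglobin, Ttr and vector UMIs in the total, 0.508 over members with no -ps copy and, in an alternative chosen after seeing the data, 0.423 with the copies added. The members' median in astrocyte-like cells changed sign, from -0.11 to 0.055 with median-of-ratios scaling, 0.19 with 10% of free RNA subtracted and 0.0078 over members with no copy, and was -0.32 in the single shared cluster. The neuron-like median of 0.54 changed sign to -0.31 in the single shared cluster. Median-of-ratios scaling gave -0.62 in endothelial cell-like and -1.61 in microglia-like cells, and free RNA subtraction -0.15 in oligodendrocyte-like cells, all under 0 as before. The count of lower members in astrocyte-like cells was 9 after thinning, 6 with median-of-ratios scaling, 7 with free RNA subtracted, and 3 both over members with no copy and at a fold of 2. With no-copy members alone, where fewer members are tested, it was 11 of 24 in endothelial cell-like cells (12.6% of all genes). It was 21 of 24 in microglia-like cells (13.9% of all genes) and 7 of 23 in oligodendrocyte-like cells (15.5% of all genes). At a fold of 2 the count was 18 in endothelial cell-like and 13 in oligodendrocyte-like cells. Shares of all genes were not computed for thinning, other scalings, free RNA subtraction or the fold of 2. The highest over lowest class share was 8.08 (thinned) and 8.74 (free RNA subtracted) in the NeuroD1 library, against 8.97 and 11.8 in the GFP library. Outside these, the microglia-like, endothelial, oligodendrocyte and other non-neuronal medians except the astrocyte-like one stayed under 0 under each alternative. For other classes, the neuron-like one included, 145 values stayed within their interval or within 1.5 times the count, 37 moved and 1 changed sign. The cause was not tested. Depth limits members with few UMIs, and leaving out a library would leave no comparison.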
